A study of Mus musculus with 36 samples.

Results

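The genes described here are 10 markers of resident macrophages, C1qa, C1qb, C1qc, Cd68, Csf1r, Mrc1, Cd163, F13a1, Lyz2 and Adgre1. They were taken by symbol from the 46893 features of a gene count table, and each symbol matched 1 feature. The libraries came from gastrocnemius muscle of 36 wild-type C57BL/6 male mice, with 1 library per mouse and 6 mice in each of 6 groups. The mice entered the study at 3 to 4 weeks of age and were kept in it for 12 weeks. NFD-C mice were sedentary and ate the AIN93G diet, and HFD-C mice were sedentary and ate a high-fat diet. The other groups ate the same high-fat diet and had a running wheel whose brakes set the daily distance. HFD-25% mice ran 2.1 km/day, HFD-50% mice 4.2 km/day, HFD-75% mice 6.3 km/day, and HFD-U mice, whose wheel was never locked, 8.3 km/day. All 30 mice of the high-fat groups therefore share the diet, and running on the AIN93G diet was not part of the design. The RNA was that of whole muscle, so for every gene below fewer macrophages and less RNA per macrophage cannot be told apart.

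Resident macrophages live in the connective tissue between muscle fibres, where they take up debris and dead cells and take part in repair after injury. Their survival depends on the receptor encoded by Csf1r, which binds the growth factors CSF1 and IL-34. They are also a main source of C1q, the protein that starts the classical complement pathway when it binds antibodies or dying cells. A macrophage also carries CD68 in its lysosomes, lysozyme among its secreted products, and scavenger receptors such as CD163 and the mannose receptor on its surface.

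The 3 C1q genes lie side by side on the minus strand of chromosome 4. In the coordinates of the count table, whose chromosome sequences are those of GRCm39, C1qb spans 136607437 to 136613511, C1qc spans 136617112 to 136620242 and C1qa spans 136623227 to 136626155. Cd68 lies on chromosome 11 from 69555039 to 69556996, and F13a1 on chromosome 13 from 37051150 to 37234220, both on the minus strand. Lyz2 lies on the minus strand of chromosome 10 from 117113446 to 117118177, next to its close copy Lyz1, which had a mean count of 28.8 against 423 for Lyz2. Reads shared by the copies may have been split or lost, so Lyz2 values are uncertain to that extent. Cd163 spans 124281596 to 124307488 on the plus strand of chromosome 6, and the antisense long noncoding RNA Gm52877 lies inside it with a mean count of 58.3 against 125 for Cd163. The strand setting of the counting is not given in the sources used here, so reads of the pair cannot be told apart. Mrc1 is on chromosome 2 from 14234225 to 14336834 and Adgre1 on chromosome 17 from 57665581 to 57790529, both on the plus strand.

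Because the markers varied together between mice, as shown further on, their promoters are printed for the neighbours C1qb and C1qc and for Cd68 and F13a1, which had the smallest p-values. The windows hold 250 bases before and 50 after the RefSeq gene start, read 5′ to 3′ along the gene, on GRCm38.p6 and not on the build of the counts. RefSeq windows were matched for 7 of the 10 markers, with 8 windows in all, since F13a1 has 2 starts. Capitals mark GAGGAA, the core of the binding site of PU.1, a transcription factor that myeloid cells need, or its reverse complement TTCCTC.
C1qb, chr4:136886151-136886450, minus strand: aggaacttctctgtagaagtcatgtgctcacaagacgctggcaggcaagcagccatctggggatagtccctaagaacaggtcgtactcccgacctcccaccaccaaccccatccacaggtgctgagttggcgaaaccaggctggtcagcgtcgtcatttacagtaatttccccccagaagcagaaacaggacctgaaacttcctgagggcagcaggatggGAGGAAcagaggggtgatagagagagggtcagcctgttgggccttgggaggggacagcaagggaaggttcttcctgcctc
C1qc, chr4:136892865-136893164, minus strand: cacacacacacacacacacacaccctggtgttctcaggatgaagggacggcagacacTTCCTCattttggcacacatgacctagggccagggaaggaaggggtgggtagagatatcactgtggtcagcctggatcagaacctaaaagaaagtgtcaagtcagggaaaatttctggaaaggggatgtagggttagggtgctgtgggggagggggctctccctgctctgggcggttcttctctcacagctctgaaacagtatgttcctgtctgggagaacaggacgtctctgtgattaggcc
Cd68, chr11:69666121-69666420, minus strand: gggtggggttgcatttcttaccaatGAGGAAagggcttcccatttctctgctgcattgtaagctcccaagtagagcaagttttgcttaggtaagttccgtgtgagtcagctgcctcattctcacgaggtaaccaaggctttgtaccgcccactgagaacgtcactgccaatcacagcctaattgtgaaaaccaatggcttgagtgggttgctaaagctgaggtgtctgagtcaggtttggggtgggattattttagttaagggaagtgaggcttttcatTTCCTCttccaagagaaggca
F13a1, chr13:37049164-37049463, minus strand: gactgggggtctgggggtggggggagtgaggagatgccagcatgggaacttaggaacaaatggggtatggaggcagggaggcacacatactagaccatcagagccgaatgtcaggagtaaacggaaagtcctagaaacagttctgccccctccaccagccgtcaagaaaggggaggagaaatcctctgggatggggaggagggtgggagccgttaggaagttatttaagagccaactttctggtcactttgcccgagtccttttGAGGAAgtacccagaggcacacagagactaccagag
Counted from the gene start, with negative positions before it, the core begins at -30 in C1qb, at -193 on the opposite strand in C1qc, and in Cd68 at -225 and, on the opposite strand, at 30. In F13a1 it begins at 15 after the start shown, and the other start has matches at -66 and 18. Mrc1 has 3 matches, at -180, -167 and -35, all on the opposite strand, while the windows of Cd163 and Lyz2 hold none. Counted by gene, 5 of the 7 markers had a match on either strand in at least 1 window, against 8446 of the 27025 genes in the table. Counted by window, the share in the table was 28.3% of 32851. The recognition core of MAF proteins, TGCTGA, was found in C1qb and Lyz2 (19.5% of all windows), and the C/EBP motif TTGCNNAA in Cd68 alone among the markers matched (10.8% of all windows). Both strands were searched, and matches of different motifs did not overlap in these windows. A match describes letters in a window and shows no binding.

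Libraries held 13060090 to 27981702 counts, with a median of 16710687.5, and the 10 markers together summed to between 39.7 and 119 CPM before scaling (CPM, counts-per-million, the count of a gene relative to the total of its library). None of the 10 was at 0 in any library. The other genes of the macrophage lineage were present as well, since 22 of them summed to between 33.2 and 67.3 CPM and 13 further genes of tissue-resident macrophages to between 80.2 and 156 CPM. The 9 neutrophil genes summed to at most 1.28 CPM in each library of the groups other than HFD-50%, where the median was 0.459 CPM and the highest library reached 13.4 CPM, and Ly6g had no count in any of the 36 libraries (named here after its values were seen). The 6 muscle fibre genes summed to between 67985 and 139984 CPM. Features linked to ribosomal RNA (rRNA) were summed together with Rn7sk, a small nuclear RNA, and all of them are called rRNA-linked below. They took 2.01 to 3.80% of the counts in NFD-C and 0.404 to 1.02% in the running mice. In HFD-C they took 0.551 to 3.54%, and only HFD-C replicates 5 and 6 were below 1.5%. This share was therefore lower in running mice than in most sedentary mice, but it also differed within the sedentary HFD-C group. HFD-C replicates 5 and 6 lay within the range of the running mice. The bearing of the share on the markers is given after the group comparisons. Values below are CPM scaled with TMM factors, which correct for unequal composition of the libraries.

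Per kilobase of gene length, Lyz2, which encodes the lysozyme of macrophages, was the highest of the 10, with 22.9 ± 6.34 CPM per kilobase (SD, n = 36). The C1q chains followed, with C1qa at 8.03 ± 2.45, C1qb at 6.71 ± 2.32 and C1qc at 6.71 ± 2.17 CPM per kilobase. Then came Csf1r at 2.14 ± 0.684, Cd163 at 1.59 ± 0.472, Cd68 at 1.503 ± 0.638, F13a1 at 1.35 ± 0.454 and Mrc1 at 1.19 ± 0.353 CPM per kilobase. Adgre1, which encodes the F4/80 antigen used to stain mouse macrophages, was the lowest at 0.269 ± 0.164 CPM per kilobase. From C1qa to C1qc and from Csf1r to Mrc1, each gene was within 1 SD of the next. Lyz2 exceeded C1qb in every mouse, with ratios per length of 2.35 to 5.91. In counts, 9 markers averaged between 32.3 for Cd68 and 423 for Lyz2, and passed the mean count of at least 25 required for testing. Adgre1 averaged 16.0 counts, with 2 to 47 per library, and was tested only in a fit with no minimum count.

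**Figure D1:**
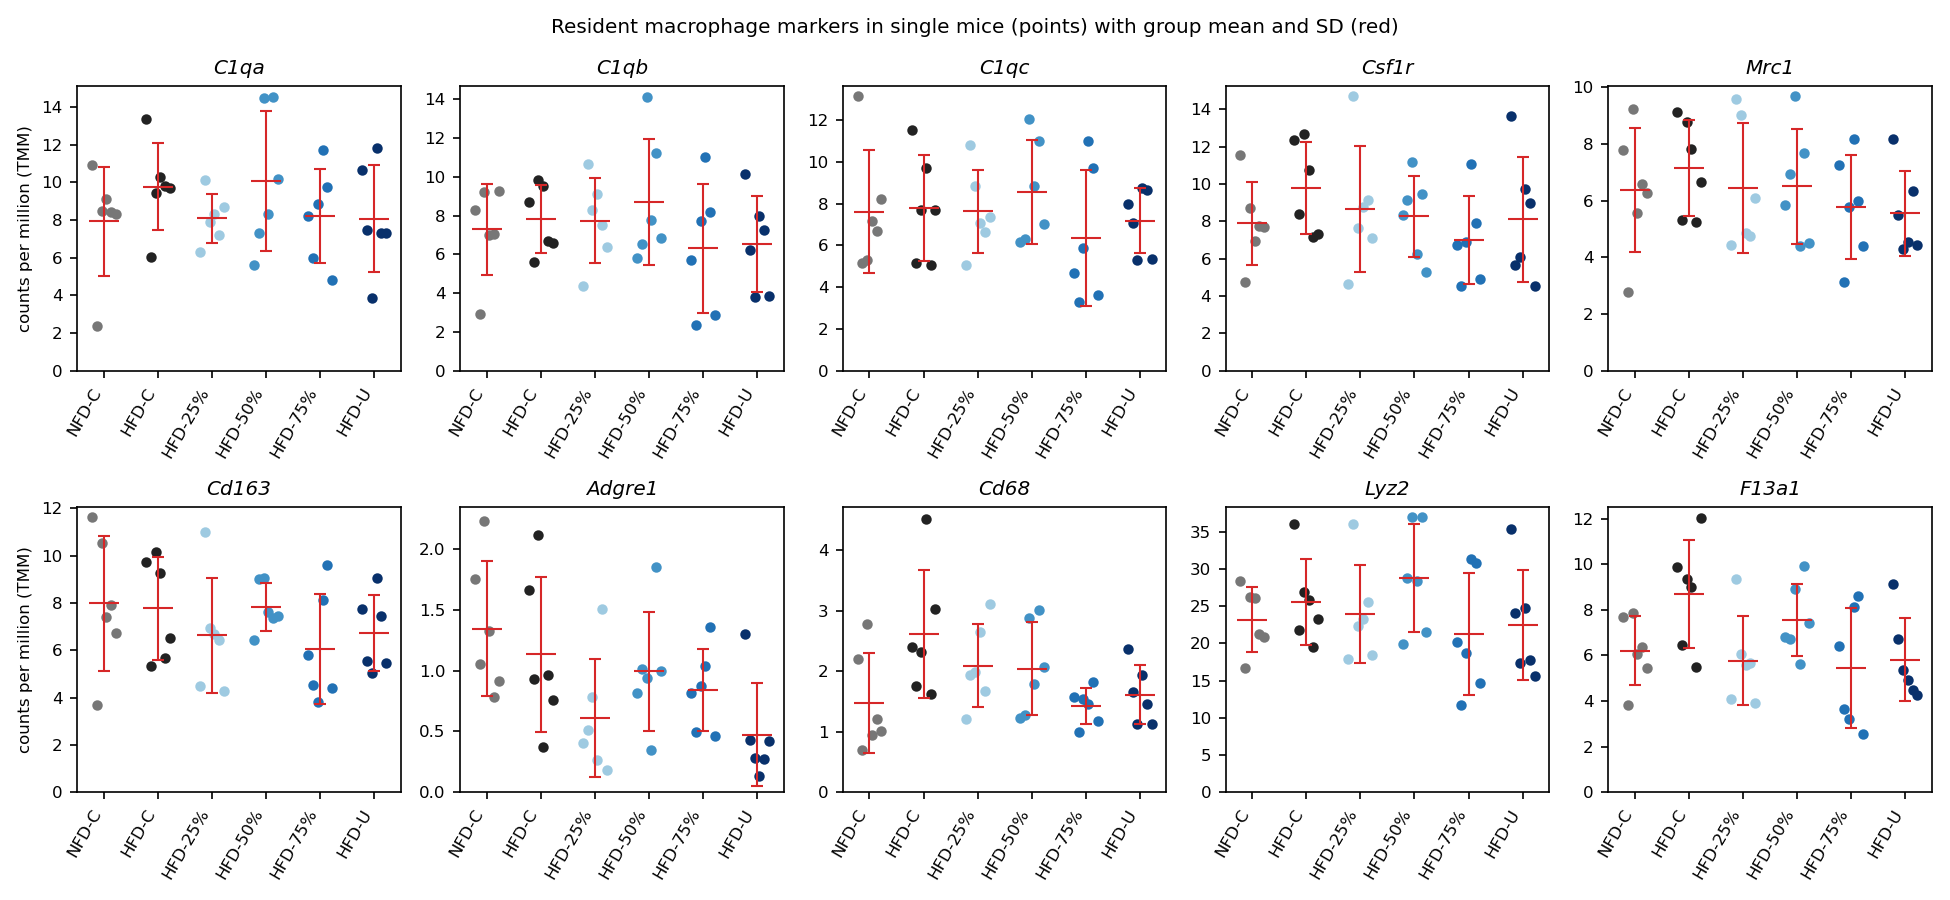
CPM (vertical axis, TMM-scaled, from 0) of the 10 markers in 6 groups (horizontal axis). Points are single mice, 6 per group, and red bars give the group mean and SD. Every group overlaps HFD-C for every marker, and the group means of Cd68, F13a1, Csf1r and Mrc1 are highest in HFD-C.

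After adjustment over all genes tested, 0 of the 9 testable markers passed an adjusted p of 0.05 in any of the 12 comparisons made with edgeR's quasi-likelihood test and Benjamini-Hochberg adjustment. Few genes of any kind did. Against HFD-C, 0.0082% of all genes tested passed in HFD-25%, 0% in each of HFD-50%, HFD-75%, HFD-U and NFD-C, and 0.3% passed in all running mice. The share was 1.45% among the 6 groups, 0.0251% among the 4 exercise groups, 0.683% in the dose response, and, for HFD-50% against each other exercise group, 0% (HFD-25%), 0% (HFD-75%) and 0.00844% (HFD-U). DESeq2 likewise called 0 markers after adjustment. At an unadjusted p of at most 0.05, Cd68, F13a1 and Csf1r were the only markers of the 9 called, and each call against HFD-C was for a lower level than in HFD-C. The HFD-C mice are shared by all comparisons against that group, so these calls are not independent of each other. At that threshold, no call in running mice against HFD-C held when the fit took in the rRNA-linked share as a term, or among the libraries below 1.5% alone, and the values are given further on.

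Against HFD-C, 1 of 9 markers was called in HFD-25% at an unadjusted p of at most 0.05, against 6.98% of all genes tested and 3.58% called lower. In HFD-50% 0 of 9 were called, against 10.7% of all genes. HFD-75% had 3 of 9, against 5.47% called and 3.16% called lower, and HFD-U had 2 of 9, against 5.46% and 3.31%. In NFD-C 2 of 9 were called, against 4.12% and 2.14%, and in the 24 running mice pooled 2 of 9, against 9.27% and 5.12%. The single call in HFD-25% is near what its background gives for 9 genes. The median log2 fold change of the 9 was lowest in HFD-75%, at -0.31, followed by -0.27 for HFD-U, -0.18 for HFD-25%, -0.17 for NFD-C and 0.01 for HFD-50%, while the medians of all genes tested lay between -0.01 and 0.01. All 9 markers were on the lower side in HFD-U, HFD-75% and HFD-25%, whereas 5 of 9 were on the higher side in HFD-50%. These counts describe 9 genes that vary together, and they carry no test.

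**Figure D2:**
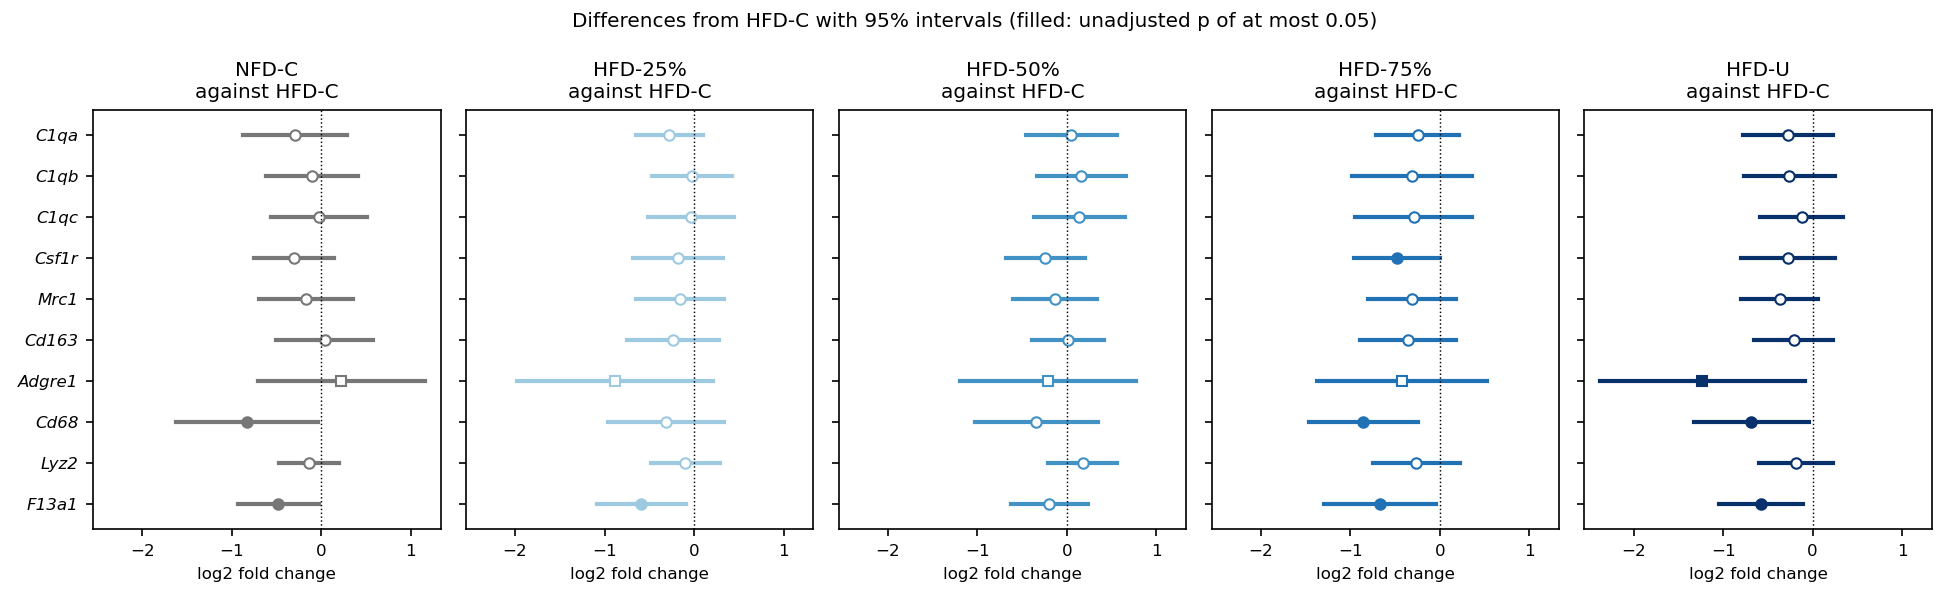
Log2 fold change (horizontal axis) of each marker (rows) in NFD-C and the 4 exercise groups against HFD-C, with 95% intervals as lines. Filled symbols have an unadjusted p of at most 0.05, and squares mark Adgre1, fitted with no minimum count. Cd68 and F13a1 have intervals below 0 in 3 and 4 of the 5 panels, and besides Csf1r in HFD-75% and Adgre1 in HFD-U all other intervals cross 0.

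The C1q chains, the subunits of the complement starter, did not pass the test in any comparison. C1qa averaged 9.77 ± 2.32 CPM in HFD-C (SD, n = 6) and 10.1 ± 3.72 in HFD-50%, and between 7.94 and 8.21 CPM in the other groups. C1qb ranged from 6.31 ± 3.33 CPM in HFD-75% to 8.73 ± 3.25 in HFD-50%, with 7.83 ± 1.76 in HFD-C. C1qc ranged from 6.37 ± 3.26 CPM in HFD-75% to 8.56 ± 2.50 in HFD-50%, with 7.81 ± 2.53 in HFD-C. All 3 chains had their highest group mean in HFD-50% and C1qb and C1qc their lowest in HFD-75%, but neighbouring groups differed by less than 1 SD. The spread inside a group was wide. Within HFD-75%, C1qb ran from 2.36 to 11.02 CPM, a ratio of 4.68, and within NFD-C, C1qa ran from 2.39 to 10.9 CPM, the low end being replicate 2 alone. The log2 difference of C1qb between HFD-75% and HFD-C was -0.31 with a 95% interval of -0.98 to 0.36, so a decrease of this chain within that interval was not detectable with these mice. For HFD-25% the interval of C1qb was narrower, from -0.47 to 0.43.

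The chains varied less against each other than between mice. Per length, the ratio of C1qc to C1qb was 1.04 ± 0.243 (SD, n = 36) and that of C1qa to C1qb 1.25 ± 0.342. By group, the mean ratio of C1qc to C1qb lay between 0.978 and 1.15, and that of C1qa to C1qb between 1.09 and 1.54. The ratio of C1qa to C1qb was highest in HFD-75%, at 1.54 ± 0.562, where 1 mouse reached 2.59. No test was made of these ratios.

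Csf1r, the receptor for CSF1 and IL-34, lies on the plus strand of chromosome 18 from 61238644 to 61264211. It was the only receptor among the 9 testable markers with an unadjusted p of at most 0.05, in HFD-75%. In HFD-C its lowest, median and highest values were 7.17, 9.60 and 12.7 CPM. In HFD-75% they were 4.53, 6.82 and 11.1 CPM, so 4 of 6 HFD-75% mice were below every HFD-C mouse while the ranges overlapped. The log2 fold change was -0.48 (95% interval -0.96 to -0.00, unadjusted p = 0.0493, adjusted p = 0.911). The call ended when any of 8 mice was left out, HFD-75% replicates 1, 2, 3, 5 and 6 or HFD-C replicates 1, 3 and 4, with p up to 0.117. In the other groups Csf1r averaged 7.90 ± 2.23 CPM in NFD-C, 8.68 ± 3.37 in HFD-25%, 8.28 ± 2.17 in HFD-50% and 8.11 ± 3.36 in HFD-U (SD, n = 6 each).

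Mrc1, the mannose receptor CD206, and Cd163, the receptor that takes up haemoglobin bound to haptoglobin, mark macrophages at rest in tissue, and neither passed the test in any comparison. Mrc1 averaged 7.16 ± 1.69 CPM in HFD-C, the highest group mean, and 5.55 ± 1.51 in HFD-U, the lowest (SD, n = 6 each). Its log2 difference in HFD-U was -0.37, with a 95% interval of -0.80 to 0.06 and an adjusted p of 0.953. Cd163 had its highest mean in NFD-C, at 7.98 ± 2.84 CPM, close to 7.78 ± 2.18 in HFD-C and 7.82 ± 1.03 in HFD-50%. In HFD-75% Cd163 averaged 6.05 ± 2.33 CPM, and the interval of its log2 difference from HFD-C ran from -0.89 to 0.18. HFD-50% mice were the most alike for this gene, between 6.45 and 9.05 CPM. The per-length ratio of Cd163 to Mrc1 was 1.38 ± 0.340 over the 36 mice.

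Adgre1 was counted too thinly for close statements. Its mean was 1.35 ± 0.555 CPM in NFD-C, 1.13 ± 0.638 in HFD-C, 0.474 ± 0.421 in HFD-U, 0.841 ± 0.339 in HFD-75%, 0.995 ± 0.488 in HFD-50% and 0.609 ± 0.487 in HFD-25% (SD, n = 6 each). In HFD-U the lowest, median and highest values were 0.133, 0.350 and 1.30 CPM, against 0.376, 0.947 and 2.12 in HFD-C, and 3 HFD-U mice lay below every HFD-C mouse. With no minimum count its log2 fold change in HFD-U was -1.23 (95% interval -2.37 to -0.09, unadjusted p = 0.0357, adjusted p = 0.543), where 8.67% of the genes of that fit were called. The SD that counting alone gives, 0.47 on the log2 scale, was nearly as large as the SD between mice of a group, 0.49.

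Cd68, which encodes a lysosomal glycoprotein of phagocytes, lies in the low range of the count table with 15 to 72 counts per library. In HFD-C its lowest, median and highest values were 1.63, 2.36 and 4.51 CPM. In HFD-75% they were 0.997, 1.498 and 1.81 CPM, and 5 of 6 HFD-75% mice lay below every HFD-C mouse. In HFD-U they were 1.12, 1.56 and 2.37 CPM, with 3 mice below every HFD-C mouse. In NFD-C they were 0.690, 1.11 and 2.77 CPM, with 4 mice below. The ranges of all these groups overlapped that of HFD-C, whose replicate 4 stood highest of the 36 mice. The log2 fold change against HFD-C was -0.86 in HFD-75% (95% interval -1.47 to -0.25, unadjusted p = 0.00889, adjusted p = 0.645). It was -0.69 in HFD-U (-1.33 to -0.05, unadjusted p = 0.0373, adjusted p = 0.883) and -0.83 in NFD-C (-1.62 to -0.04, unadjusted p = 0.0414, adjusted p = 1). HFD-25%, at 2.09 ± 0.681 CPM, and HFD-50%, at 2.04 ± 0.769 CPM (SD, n = 6 each), did not pass, with log2 differences of -0.31 and -0.34. The HFD-75% call held with each of the 12 mice left out in turn, at p up to 0.0294. The HFD-U call held in 6 of 12 such fits and was lost without HFD-C replicate 4 or 6 or HFD-U replicate 2, 3, 5 or 6. The NFD-C call also held in 6 of 12 and was lost without HFD-C replicate 4 or 6 or NFD-C replicate 2, 4, 5 or 6. The weakest values were those without HFD-C replicate 4, at -0.46 for HFD-U (unadjusted p = 0.128) and -0.60 for NFD-C (unadjusted p = 0.126).

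Lyz2, the deepest of the markers with 222 to 1021 counts per library, did not pass the test in any comparison. Its group means were 23.2 ± 4.39 CPM in NFD-C, 25.6 ± 5.83 in HFD-C, 22.5 ± 7.34 in HFD-U, 21.3 ± 8.21 in HFD-75%, 28.8 ± 7.30 in HFD-50% and 23.96 ± 6.63 in HFD-25% (SD, n = 6 each). Counting error was small for this gene, 0.07 on the log2 scale against 0.39 between mice of a group, so counting accounts for little of its spread. Its interval against HFD-C was widest in HFD-75%, from -0.74 to 0.22, around a log2 difference of -0.26.

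F13a1, which encodes the A subunit of coagulation factor XIII that macrophages also make, was the marker called in the most groups. In HFD-C its lowest, median and highest values were 5.48, 9.18 and 12.0 CPM. In HFD-25% they were 3.90, 5.63 and 9.34 CPM and in HFD-75% 2.56, 5.05 and 8.62 CPM. In HFD-U they were 4.28, 5.15 and 9.13 CPM, and in NFD-C 3.82, 6.23 and 7.86 CPM. All 6 mice of HFD-75%, of HFD-U and of NFD-C were below the HFD-C median, as were 5 of 6 in both HFD-50% and HFD-25%, and the ranges overlapped throughout. The log2 fold change was -0.59 in HFD-25% (95% interval -1.09 to -0.09, unadjusted p = 0.0227, adjusted p = 0.633). It was -0.67 in HFD-75% (-1.30 to -0.04, unadjusted p = 0.0389, adjusted p = 0.886) and -0.58 in HFD-U (-1.05 to -0.10, unadjusted p = 0.0199, adjusted p = 0.816). NFD-C differed by -0.48 (95% interval -0.93 to -0.03, unadjusted p = 0.0396, adjusted p = 1). HFD-50%, at 7.57 ± 1.58 CPM (SD, n = 6), did not pass, with a difference of -0.19 and an interval of -0.62 to 0.23. All 4 calls were lost without HFD-C replicate 6, which had the highest F13a1 value of the 36 mice. The values were then -0.47, -0.56, -0.46 and -0.38 in the order given above, with unadjusted p of 0.0633, 0.0891, 0.0541 and 0.0956. The HFD-25% call was also lost without HFD-25% replicate 1 or 6, and the HFD-75% call without HFD-75% replicate 2, 3 or 6 or HFD-C replicate 1, 3 or 4. The NFD-C call was lost in addition without NFD-C replicate 2, 4, 5 or 6 or HFD-C replicate 1, 3 or 4, while the HFD-U call held in the other 11 of its 12 fits.

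In the 24 running mice pooled, Cd68 was lower than in HFD-C by a log2 difference of -0.53 (95% interval -0.98 to -0.09, unadjusted p = 0.0205, adjusted p = 0.426). F13a1 differed by -0.50 (-0.92 to -0.08, unadjusted p = 0.0201, adjusted p = 0.422). The other 7 testable markers had differences between -0.29 for Csf1r and -0.07 for C1qc, and none passed.

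Running distance, as a percentage of the unrestricted distance, was fitted with a linear and a quadratic term over the 30 mice of the high-fat groups. Cd68 was the 1 marker of 9 called, against 12.2% of all genes (unadjusted p = 0.0131, adjusted p = 0.246), and 1 call in 9 is near that share. Its group means went from 2.61 ± 1.06 CPM in HFD-C through 2.09 ± 0.681 in HFD-25% and 2.04 ± 0.769 in HFD-50% to 1.43 ± 0.294 in HFD-75% and 1.61 ± 0.488 in HFD-U. The call held in 29 of 30 fits with a mouse left out and was lost without HFD-C replicate 4 (unadjusted p = 0.0727). F13a1, with an unadjusted p of 0.106, and the other 7 did not pass. Among the 4 exercise groups alone, without the sedentary mice, 0 of 9 were called, against 7.27% of all genes, and the smallest unadjusted p was 0.156, for Cd68. Over all 6 groups, 1 of 9 was called, against 12.2% of all genes, again Cd68 (unadjusted p = 0.0491, adjusted p = 0.406), and this too is near the share of all genes.

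HFD-50% was also set against each of the other exercise groups. The study counted differentially expressed genes against HFD-C, and it reported differences between HFD-50% and HFD-U for single genes by RT-qPCR. Of the 9 markers, 0 were called against HFD-25% (2.69% of all genes), 0 against HFD-75% (5.37%) and 0 against HFD-U (12.4%). The median log2 difference of the markers was 0.18, 0.43 and 0.32 in this order, and all 9 were on the higher side in HFD-50% against HFD-75% and against HFD-U. These comparisons share the HFD-50% mice. The largest were Cd68 against HFD-75%, at 0.52 (95% interval -0.08 to 1.13), and C1qb and F13a1, at 0.48 each. Lyz2 differed by 0.44 (-0.08 to 0.96, unadjusted p = 0.0896, adjusted p = 0.838). With the mouse number as a block, C1qb, C1qc and Lyz2 passed an unadjusted p of 0.05 against HFD-75%, at 0.58, 0.52 and 0.49, with p of 0.0426, 0.0261 and 0.0246. Nothing says that the mouse numbers pair the mice of these groups, so this was not read as a paired test.

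The difference between single mice was larger than that between groups. Groups accounted for 7.75 to 35.0% of the variance of a marker on the log2 scale, against 14.9% for the median gene, with Adgre1, Cd68 and F13a1 highest at 35.0, 29.5 and 27.8%. Within groups the SD of a marker was 0.39 to 0.54 on the log2 scale, against 0.30 for the median gene. The markers moved together from mouse to mouse. After the group means were subtracted, Pearson's r of the 45 pairs of markers over the 36 mice had a median of 0.68 and ranged from 0.17 to 0.83, and 0 pairs were below 0. The median of Spearman's rho was 0.66. The 36 pairs without Adgre1 all exceeded 0.5, and C1qb with Lyz2, at 0.83, and C1qa with C1qb, also at 0.83, were the closest. Cd68 was the least like the rest of those 9, with a mean r of 0.52 to the other markers, and the 3 C1q pairs ranged from 0.72 to 0.83. Without NFD-C replicate 2 and HFD-U replicate 1, the mice farthest from the median, the median r was 0.63. The values of a mouse share its library and its scaling, and these correlations are a description with no test.

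**Figure D3:**
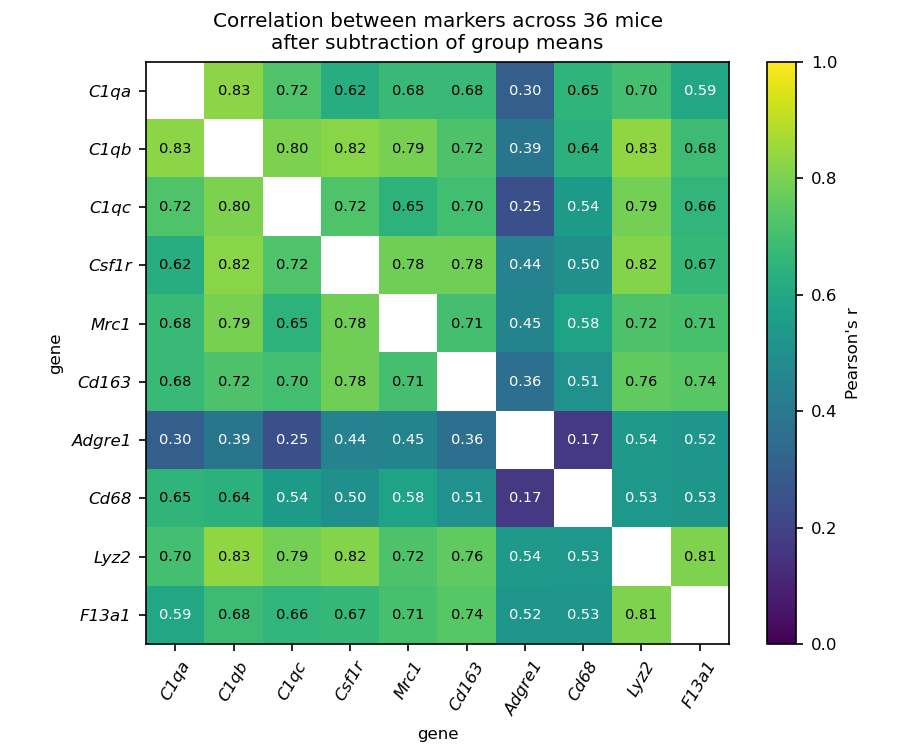
Pearson's r between pairs of markers (both axes are genes) over 36 mice, on log2(CPM + 0.5) after subtraction of group means. All 45 values are above 0, and the row of Adgre1 holds the lowest ones, down to 0.17.

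Some mice were low or high in nearly the whole set. NFD-C replicate 2 had 9 of 10 markers among the 9 lowest mice of the 36, and the markers summed to 43.9 CPM in it. HFD-25% replicate 1 had all 10 there, with a sum of 52.9 CPM. HFD-75% replicates 2 and 6 had 9 each, with sums of 40.7 and 43.8 CPM, and so did HFD-U replicates 3 and 6, with 52.6 and 52.3 CPM. No mouse of HFD-C or HFD-50% was among these. At the other end, HFD-C replicate 1 and HFD-50% replicate 3 had 9 markers among the 9 highest mice, with sums of 115 and 120 CPM, and HFD-C replicate 4 and HFD-U replicate 1 had 8. The group means of the sum were 77.3 ± 19.9 CPM in NFD-C, 88.1 ± 19.1 in HFD-C, 72.6 ± 20.5 in HFD-U, 68.7 ± 25.5 in HFD-75%, 89.3 ± 21.9 in HFD-50% and 77.66 ± 20.7 in HFD-25% (SD, n = 6 each). High and low mice thus occurred within the same group, as in HFD-U and HFD-75%, whose mice spanned 52.3 to 107 CPM and 40.7 to 103 CPM.

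**Figure D4:**
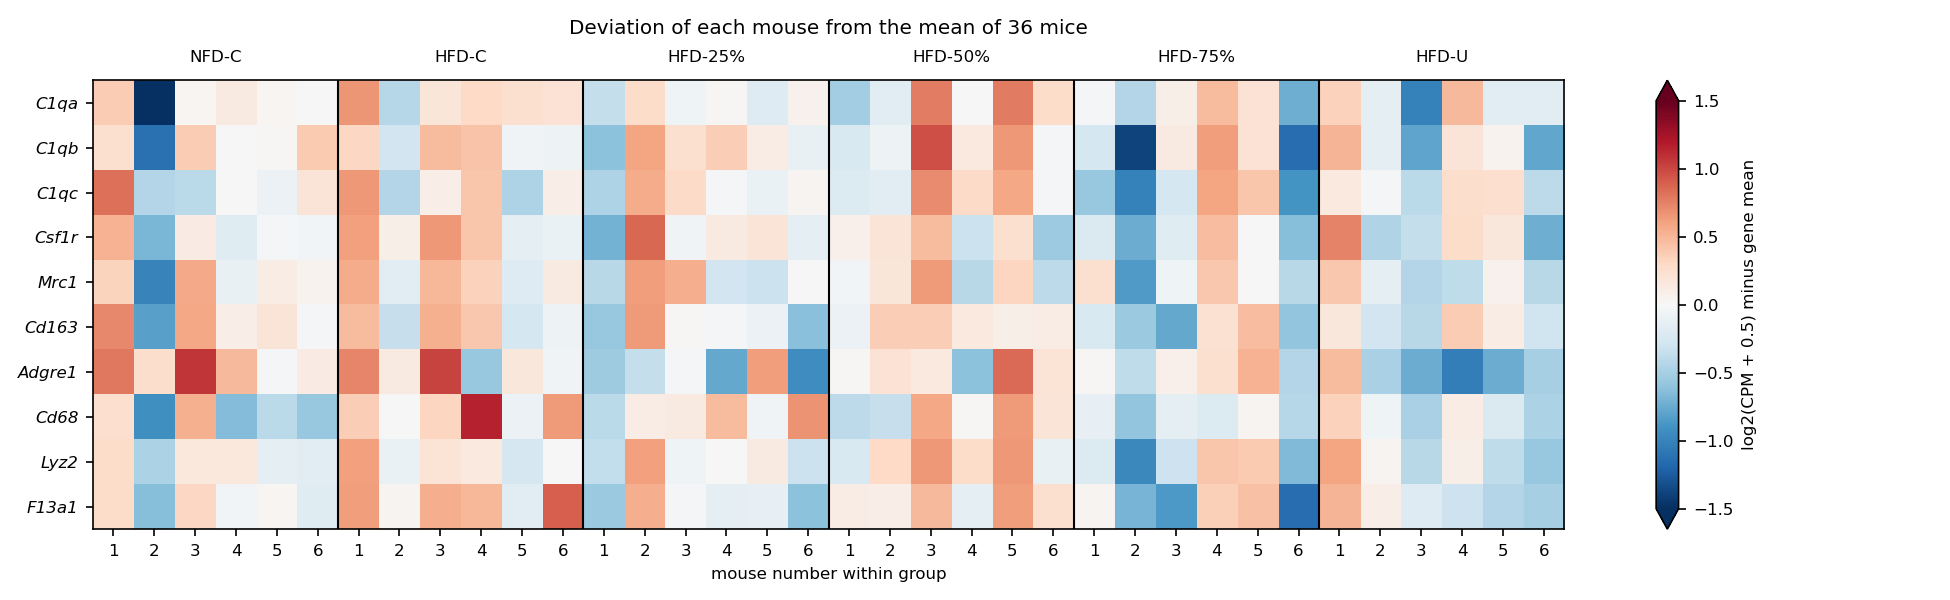
Deviation of each mouse (columns, grouped and numbered within the group) from the mean of the 36 mice for each marker (rows), in units of log2(CPM + 0.5), from blue (lower) to red (higher). Columns tend to hold a single colour, as in NFD-C 2, HFD-75% 2 and HFD-75% 6 (low) and HFD-C 1 and HFD-50% 3 (high).

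The level of the whole set followed most closely the further macrophage and tissue-resident genes of a mouse, and not its muscle fibre genes. Within groups, the mean log2 level of the 10 markers had an r of 0.82 with the mean of the 9 other macrophage genes above the minimum count, such as Ctss, Laptm5 and Mpeg1, and of 0.80 with 8 tissue-resident genes such as Lyve1, Folr2 and Pf4. It had an r of 0.76 with 11 complement genes other than C1q, 0.67 with 7 monocyte and MHC class II genes, and 0.58 with 9 fibroblast genes. With 7 endothelial genes the r was 0.17, with 5 muscle fibre genes -0.13, and with the total count of the library -0.08. Spearman's rho was 0.81, 0.84, 0.74, 0.72, 0.65, 0.21, -0.16 and -0.08 in this order, over 36 mice that share their libraries. Pearson's r was also 0.70 with 4 cytokine and chemokine genes and 0.60 with 2 mast cell genes. It was only 0.38 with 10 genes of lipid-associated macrophages and 0.35 with 11 CSF1R ligands and lineage regulators. The likeness was thus not limited to lists of macrophage genes. The lipid-associated list and that of ligands and regulators hold genes that macrophages share with other cells of the muscle. The lipid-associated list summed to 1222 ± 563 CPM in HFD-C, against 88.1 ± 19.1 for the markers (SD, n = 6 each). The lower r of these lists therefore does not tell how far macrophage genes vary together.

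Of 12044 other genes, those most like the markers by mean r to the 10 were Tgfbi at 0.66, Serping1 at 0.61, Lyve1 at 0.61, H2-Aa at 0.60 and Ctss at 0.60. Rnase4, Cd74, Emilin2, Sertad4, Folr2, Laptm5 and Pf4 followed, down to 0.55, while the median gene stood at -0.00. Serping1 encodes the inhibitor of C1, Lyve1 marks resident macrophages along vessels as well as lymphatic endothelium, and H2-Aa and Cd74 belong to antigen presentation on MHC class II. None of the 12 was used to choose the markers.

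Since the rRNA-linked share differs between HFD-C and the running groups, the comparisons were repeated with the log2 share as a covariate, and with the libraries below 1.5% alone, which leaves HFD-C replicates 5 and 6. Under both settings, edgeR called 0 of 9 markers at an unadjusted p of at most 0.05 in each comparison of running mice with HFD-C. For F13a1 in HFD-25% the size was kept, at -0.59 with the covariate (unadjusted p = 0.0936) and -0.58 among the low-share libraries (unadjusted p = 0.135). Cd68 in HFD-75% stood at -0.71 (unadjusted p = 0.0885) and -0.69 (unadjusted p = 0.0861), against -0.86. Csf1r in HFD-75% came to -0.00 (unadjusted p = 0.988) and -0.05 (unadjusted p = 0.883), against -0.48. In the 24 running mice, the median of the 9 markers went from -0.20 to 0.15 under either setting, and C1qb, C1qc, Csf1r, Mrc1, Cd163 and Lyz2 were on the higher side in both. HFD-C replicates 1, 3 and 4, with a high share, were above the mean of all mice in the 10 markers by 0.56, 0.45 and 0.35 log2 units on average, while replicate 2, also high, was at -0.15, and the low-share replicates 5 and 6 at -0.12 and 0.17. NFD-C mice, whose share was high in each library at 2.01 to 3.80%, averaged -0.00 ± 0.42 on this scale (SD, n = 6). They ran from -0.74 in replicate 2 to 0.46 in replicate 1. Within groups, the markers' mean level and the log2 share had an r of 0.32. What part the share has in the lower levels of running mice was not tested further, and with 2 HFD-C mice left it cannot be told apart from running.

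**Figure D5:**
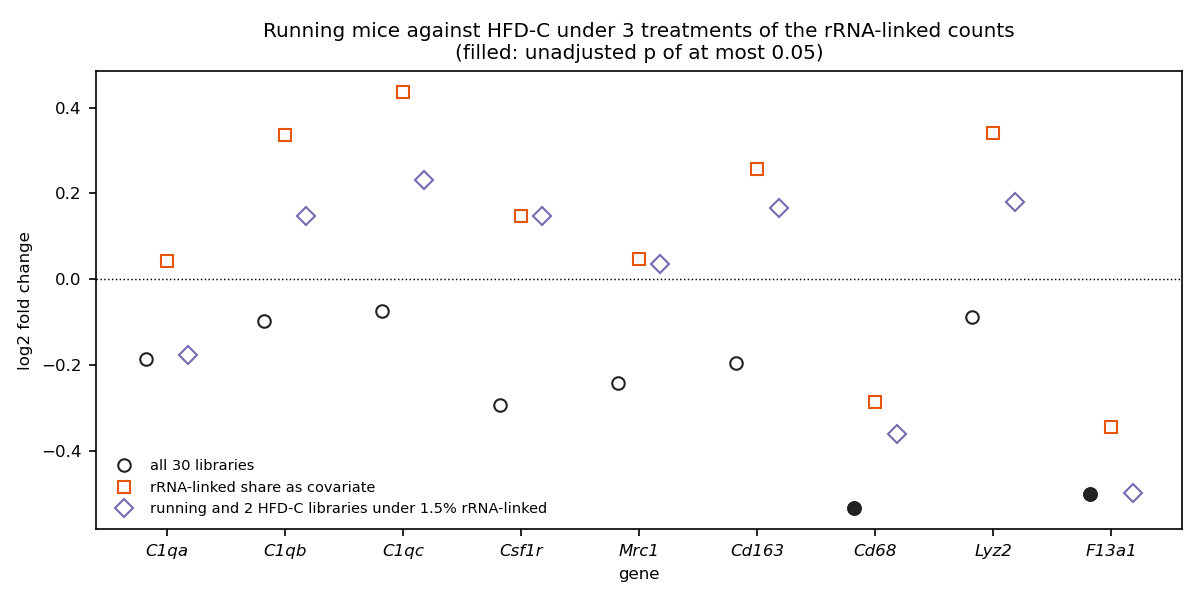
Log2 fold change (vertical axis) of the 9 testable markers (horizontal axis) in 24 running mice against HFD-C with all libraries (circles), with the log2 rRNA-linked share as a covariate (squares) and among libraries below 1.5% (diamonds, 2 HFD-C mice). Filled symbols have an unadjusted p of at most 0.05. Only Cd68 and F13a1 with all libraries are filled, and both stay below 0 under each setting.

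Other genes of the lineage were examined from lists, to be read against the shares of all genes called at the same threshold, 5.47% in HFD-75%, 5.46% in HFD-U, 10.7% in HFD-50%, 6.98% in HFD-25% and 4.12% in NFD-C. The settings for the rRNA-linked share were examined for the markers only. Whether the calls of list genes, here and in all later paragraphs, hold under them was not tested. Of 22 further macrophage genes, 8 to 11 were tested in each comparison with HFD-C, and 2 were called lower in HFD-75%, Mpeg1, a pore-forming protein of phagocytes, at -0.96 (unadjusted p = 0.0322, adjusted p = 0.858) and Fcgr2b, an inhibitory antibody receptor, at -0.76 (unadjusted p = 0.0358, adjusted p = 0.875). Mpeg1 was also called in HFD-U, at -0.99 (unadjusted p = 0.0368, adjusted p = 0.883). Of 13 further tissue-resident genes, 8 were tested, with 0 called in HFD-75% and 1 lower in HFD-U, the lectin Clec10a at -0.91 (unadjusted p = 0.0454, adjusted p = 0.912). In HFD-U, Cbr2, Lyve1 and Gas6 were on the higher side, at 0.41, 0.27 and 0.08, and the other genes tested of this list on the lower side. The 13 genes summed to 123 ± 10.3 CPM in HFD-C, 133 ± 10.7 in HFD-U, 122 ± 9.92 in HFD-75%, 124 ± 28.4 in HFD-50%, 138 ± 8.72 in HFD-25% and 126 ± 13.2 in NFD-C (SD, n = 6 each). The sum, in which abundant genes weigh most, was thus not lower in the running groups in the way of the 10 markers. Gene by gene, most of the list was on the lower side in HFD-75%, as the markers were. There Mgl2, Pf4, Folr2, Stab1, Clec10a and Cbr2 stood at -0.69, -0.40, -0.37, -0.29, -0.25 and -0.14. Lyve1 and Gas6 were on the higher side, at 0.40 and 0.18. Of 12 monocyte and MHC class II genes, 7 were tested, with 1 called lower in HFD-75% and 3 in HFD-U. H2-Aa, a chain of MHC class II, was called in both, at -0.70 (unadjusted p = 0.0206, adjusted p = 0.800) and -0.62 (unadjusted p = 0.00395, adjusted p = 0.582). Ccr2, the receptor that brings monocytes into tissue, averaged 1.62 ± 0.885 CPM in HFD-C and 1.73 ± 0.811 in HFD-U (SD, n = 6 each), and its ligand Ccl2 had a mean count of 3.56 and was not tested. In HFD-50%, 0 genes of these 3 lists were called. In HFD-25% 1 was, Gas6, a ligand of receptors by which phagocytes take up dying cells, and it was higher, at 0.28 (unadjusted p = 0.0385, adjusted p = 0.693). In NFD-C 3 were, Lgmn, a lysosomal protease, at -0.52 (unadjusted p = 0.0159), Folr2, a folate receptor of resident macrophages, at -0.95 (unadjusted p = 0.0139), and H2-Eb1, another MHC class II chain, at 0.63 (unadjusted p = 0.0138), each with an adjusted p of 1.

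Among regulators and ligands of the lineage, Maf, a transcription factor that macrophages share with muscle fibres, passed an adjusted p of 0.05 among the 6 groups, at 0.0145. Maf averaged 145 ± 35.1 CPM in NFD-C, 129 ± 30.5 in HFD-C, 117 ± 26.1 in HFD-U, 97.9 ± 15.2 in HFD-75%, 81.9 ± 14.5 in HFD-50% and 94.0 ± 12.2 in HFD-25% (SD, n = 6 each). Against HFD-C it was called lower in HFD-50%, by a log2 difference of -0.65 (unadjusted p = 0.00159, adjusted p = 0.169), in HFD-25%, by -0.45 (unadjusted p = 0.0102, adjusted p = 0.519), and in HFD-75%, by -0.39 (unadjusted p = 0.0288, adjusted p = 0.855). Csf1, a ligand of the receptor encoded by Csf1r, averaged 8.25 ± 2.37 CPM in HFD-C and 5.70 ± 1.45 in HFD-75% (SD, n = 6 each), where it was called lower (log2 difference -0.53, unadjusted p = 0.0313, adjusted p = 0.857), and Il34, the other ligand, averaged 3.34 ± 0.981 and 3.90 ± 1.12 CPM. Spi1, which encodes PU.1, averaged 15.2 counts and was not tested.

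Genes of other cell types were read at the same unadjusted threshold and against the same shares of all genes, and 0 of those in the lists below passed an adjusted p of 0.05 against HFD-C. Of 9 fibroblast genes, none at 0 in any group, 5 were called lower in HFD-75%, 4 in HFD-25%, 3 in HFD-50% and 1 each in HFD-U and NFD-C, where 1 of 9 is near the share of all genes. Their sum ran from 423 to 746 CPM in HFD-C, 417 to 626 in NFD-C, 341 to 622 in HFD-U, 332 to 550 in HFD-75%, 213 to 619 in HFD-50% and 290 to 603 in HFD-25%. Of 7 endothelial genes, 2 were called higher in HFD-50% and 2 in HFD-25%, with 0 called elsewhere. Of the 5 muscle fibre genes tested, 0 were called. Of 7 adipocyte genes, 5 were tested in HFD-U and 3 were called lower, Lep, the hormone leptin, at -3.54 (unadjusted p = 0.00108, adjusted p = 0.402), Adipoq, the hormone adiponectin, at -2.24 (unadjusted p = 0.0188, adjusted p = 0.808), and Cidec, a protein of lipid droplets, at -1.84 (unadjusted p = 0.0479, adjusted p = 0.912). Lep was also called lower in HFD-25%, at -2.22 (unadjusted p = 0.0242, adjusted p = 0.643), and 0 adipocyte genes were called in HFD-50%, HFD-75% and NFD-C. The adipocyte genes summed to 2.74 to 92.7 CPM in HFD-C, with a median of 9.87, and to 2.68 to 22.2 CPM in HFD-U, with a median of 12.0. Of the 7 genes tested of satellite cells and regenerating fibres, 2 regulators of myogenesis were called lower in HFD-U, Myog at -0.96 (unadjusted p = 0.00135, adjusted p = 0.427) and Myod1 at -0.59 (unadjusted p = 0.0370, adjusted p = 0.883), while Myf5 was called higher in HFD-75%, at 0.65 (unadjusted p = 0.0406, adjusted p = 0.889), and Myh3 lower in NFD-C, at -1.82 (unadjusted p = 0.0243). The part of fibroblast, adipocyte and satellite cell content in the lower Cd68 and F13a1 values was not tested.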

How the data were processed

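Whole gastrocnemius RNA was sequenced as 1 library per mouse. The authors aligned the reads with HISAT2 2.0.5, counted them on genes with featureCounts 1.5.0-p3, and deposited raw counts without normalization. The submitters' processing notes also name StringTie 1.3.3b, DESeq2 1.20.0, edgeR 3.22.5 and the build mm10, whereas the chromosome accessions beside the deposited counts are those of GRCm39. The strand setting is not given in the sources used here.

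Testing used edgeR 4.0.16 under R 4.3.3. For each of 12 comparisons, the libraries of its groups entered 1 fit, genes averaging at least 25 counts in them were kept, and TMM scaling and the quasi-likelihood F-test followed. Benjamini-Hochberg adjustment ran over every gene of the fit, p-values are two-sided, and 95% intervals come from the same fits. CPM and log2(CPM + 0.5) used TMM factors of all 36 libraries. The procedure was tried on simulated counts. Alternatives were DESeq2 1.42.0, RLE size factors, no minimum count, a block for the mouse number, a single fit of the 36 libraries, the log2 share of 6 rRNA-linked features as a covariate, libraries under 1.5% of that share, and the omission of each mouse. The features were LOC118568312, AY036118, Lars2, Rn7sk, mt-Rnr1 and mt-Rnr2. They did not move alike. In HFD-U against HFD-C the log2 differences were -3.90 for Rn7sk and -3.27 for Lars2, but -0.35 for mt-Rnr1 and -0.24 for mt-Rnr2. The study lists Lars2 among its genes with a significant dose response, so the share includes a gene that it relates to running distance. Correlations without single mice were added after seeing the data. Among 90 pairs of libraries of 1 group, chi-square per degree of freedom was at least 13.4, so none was counted as a copy. Same-numbered mice deviated together in 6 of 6 pairs (r from 0.135 to 0.534) only for HFD-U with HFD-C, and nothing says that a number marks a shared litter or day. Pairs of mice with different numbers were not examined beside them, so no pairing was shown. Libraries of 13060090 to 27981702 counts gave Cd68 15 to 72 counts, so counting error is large for it.

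The 10 markers and the other lists were chosen with earlier results of these data known. Other genes named are list members at an unadjusted p of at most 0.05 (up to 3 per list and comparison) or the 2 most abundant of a list, the 12 genes most correlated with the markers, and Csf1, Il34, Spi1, Ccl2, Ccr2 and Lyve1. A gene of these lists is not reported here. Promoters are from RefSeq on GRCm38.p6.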

Additional observations from a re-analysis of the deposited data

Results flagged for a closer look

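In each group, the lowest and highest of the 6 values of each marker were compared with the nearest other value, over 66 sets of 6 values, 1 per marker or mean of markers and group. Chance singles out about 1 in 20 such sets. A value was singled out when its gap to the nearest other was, by Dixon's test at the 95% level, too large a part of the group's range, which was so for 3 values. C1qa in NFD-C replicate 2 was 2.39 CPM, with the next lowest mouse at 8.30. C1qb in the same mouse was 2.94 CPM, with the next at 7.01. This mouse was low in 9 of the 10 markers, and its library held 22717388 counts. Adgre1 in HFD-U replicate 1 was 1.30 CPM, with the next highest mouse at 0.431, a gene of 16.0 counts on average. That mouse was among the highest 9 for 8 markers.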

How the results depend on the processing

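In all 176 fits, main and alternative, 0 of the 9 markers passed an adjusted p of 0.05. At an unadjusted p, DESeq2 called the same number of markers as edgeR in every comparison. With the log2 share of rRNA-linked counts as a covariate the number went to 0 in HFD-25%, HFD-75%, HFD-U, all running mice and the dose response, and to 1 (F13a1) in HFD-50% against HFD-U. Among libraries under 1.5% it went to 0 in HFD-25%, HFD-75%, HFD-U and all running mice. The difference among the 6 groups went from 1 to 0 with RLE size factors and with no minimum count, and NFD-C from 2 to 1 with 1 fit over all 36 libraries. With the replicate block it went to 0 among the 6 groups and to 3 in HFD-50% against HFD-75%. In HFD-U against HFD-C, the block gave -0.65 for Cd68 (unadjusted p = 0.0443) and -0.57 for F13a1 (unadjusted p = 0.0163). Mice of the same number are not known to be paired there, so these are not results of a paired design. The block changed no other count by more than 1.5 times. With 1 mouse left out, the number ranged from 0 to 2 in HFD-25%, 1 to 3 in HFD-75%, 0 to 3 in HFD-U, 0 to 3 in NFD-C and 0 to 2 in the dose response, and stayed at 0 in HFD-50%. It was 0 in HFD-25% without HFD-25% replicate 1 or 6 or HFD-C replicate 6, in HFD-U without HFD-C replicate 6, in NFD-C without NFD-C replicate 2, 4, 5 or 6 or HFD-C replicate 4 or 6, and in the dose response without HFD-C replicate 4. HFD-75% dropped to 1 without HFD-C replicate 1, 3 or 4 or HFD-75% replicate 2, 3 or 6. Calls were gained by C1qa in HFD-25% without HFD-C replicate 2 (-0.38), Cd163 in HFD-75% without HFD-75% replicate 5 (-0.55), Mrc1 in HFD-U and F13a1 in the dose response without HFD-U replicate 1, and Csf1r in NFD-C without NFD-C replicate 1 (-0.45). No value that had been called changed its sign. Values not called changed sign 25 times with the covariate, 19 times among low-share libraries and 31 times with a mouse left out, and under no other setting. The causes were not tested. Depth limits Adgre1 and Cd68 most, and 6 mice a group leave 95% intervals of about 1 log2 unit.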

Other observations

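Lipid-handling and cytokine genes that macrophages share with other cells were read from the same fits. Ccl6 and Ccl9, chemokines of the CC family made by myeloid cells, had their highest means in HFD-50%, at 6.92 ± 2.79 and 4.73 ± 1.12 CPM, and their lowest in HFD-U, at 3.20 ± 1.45 and 2.58 ± 1.05 CPM (SD, n = 6 each). HFD-50% exceeded HFD-U by log2 differences of 1.11 for Ccl6 (adjusted p = 0.257) and 0.87 for Ccl9 (adjusted p = 0.268), and HFD-25% by 0.92 and 0.82. Clec10a, a lectin of resident macrophages, was higher in HFD-50% than in HFD-U by 1.34 (unadjusted p = 0.000105, adjusted p = 0.0731), the smallest p of the lineage lists in that comparison, at 3.47 ± 1.05 against 1.37 ± 0.324 CPM. Nr1h3, which encodes the liver X receptor alpha, a regulator of cholesterol export in macrophages and other cells, was called higher than HFD-C in HFD-25%, HFD-50% and HFD-75%, with means of 13.4 ± 1.87 CPM in HFD-C and 16.2 ± 1.72, 18.9 ± 3.34 and 16.7 ± 1.85 CPM in these groups. These comparisons share the HFD-C mice, and none of the differences passed an adjusted p of 0.05.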
